A study of Mus musculus with 8 samples.

Results

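The 200 most abundant autosomal noncoding RNA genes of germ cells from Rnf8 and Scml2 double knockout (dKO) mice were taken from the 4 RNA-seq tables. A gene qualified if it lay on an autosome, if every RefSeq accession of its entry was of the noncoding type (NR_), and if its symbol did not begin with Snor, Scarna, Mir, Rnu or Rn. These are prefixes of small RNAs and ribosomal RNAs, but any other gene with the same first letters was also left out. Of 23400 genes in the tables, 2010 qualified, and the 200 with the highest RPKM (reads scaled to transcript length and to the reads of the library, a level per length) averaged over the 4 samples were kept. The ranking used both stages together, so RS against PS was not the choosing contrast, but a gene could enter on 1 stage alone: the PS mean of 64 genes and the RS mean of 29 genes was below 11.5 RPKM, the mean of the gene at rank 200. Levels are therefore given as a description.

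Germ cells of 2 stages, pachytene spermatocytes (PS) and spermatids of the round stage (RS), gave the RNA, from adult C57BL/6 males without Rnf8 and Scml2 (Rnf8;Scml2-dKO), with 2 samples per stage. H3K27ac, the acetylation of histone H3 at lysine 27, was profiled by ChIP-seq in PS and RS of adult wild-type C57BL/6 males, also with 2 samples per stage. RNF8 is a DNA damage response ubiquitin ligase and SCML2, encoded on the X chromosome, is a germline Polycomb protein. Both losses were present in every RNA sample, and males without both genes are infertile. No wild-type RNA was analysed here, so RNA and H3K27ac differ in genotype as well as in mice, and RS against PS describes germ cells of the dKO. The cells were separated by sedimentation of whole testis suspensions in a BSA gradient, on a small scale for the dKO. In such bulk samples, fewer cells of a type and less RNA per cell cannot be told apart.

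Long noncoding RNAs are transcribed by RNA polymerase II, are often spliced and polyadenylated, and do not serve as templates for a long protein. The testis is known for expressing more of them than other tissues, mostly in meiotic and postmeiotic germ cells, and many mouse loci were first catalogued from testis cDNA clones whose Rik names begin with the code of a testis library. In PS homologous chromosomes are synapsed and recombining, whereas RS are haploid cells that switch on the genes for sperm formation before the chromatin is compacted. H3K27ac marks active promoters and enhancers.

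The label noncoding was checked against the current RefSeq annotation of GRCm38.p6, in which all 200 genes had a record. It held 159 of them as lncRNA at the same place, 19 as transcribed pseudogenes at the same place, 14 as protein-coding genes, and 8 as pseudogenes on another chromosome. The 14 include Rhno1, a partner of the checkpoint clamp, Speer1 (listed as Speer1-ps1), Abca16 and Efcab8. One of the 14, 6430706D22Rik, was matched through a synonym to Hjurp, but the tables hold it as an entry of its own that overlaps Hjurp and A730008H23Rik on the same strand, so its reads may be divided among the 3 entries. By name, 130 of the 200 genes (65%) were testis clones, against 435 of the 1810 qualifying genes that ranked lower (24.0%). A further 25 had other Rik names, 23 had Gm names, 8 were named as pseudogenes or related sequences, and 14 had other names. The genes lay on all 19 autosomes, with 16 each on chromosomes 7 and 10. Only the pair Gm10731 and 1700034I23Rik on chromosome 3 lay within 50 kb of each other.

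Among the 180 genes with an exon model at the same place, the median spliced length was 887 bases and the median number of exons was 3. The 1748 lower-ranked genes with a model had a median length of 1433 bases and also 3 exons. The share with a single exon was 12.8% and 13.6%, respectively. RPKM divides by length, so the choosing values themselves contain this quantity.

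Promoter sequences are shown for 9 genes on which the results below turn, read from RefSeq promoters on GRCm38.p6 (250 bases before to 50 bases after the start, 5′ to 3′ on the strand of the gene). A promoter at exactly the start given in the tables was found for 135 of the 200 genes. Capitals mark matches, on either strand, to letters known from factors of these stages: CAGTTG (or CAACTG), a core bound by MYB proteins such as MYBL1, a regulator of pachytene genes; TGACGT, part of the site of CREM, a regulator of spermatid genes; GTTGCC, part of the site of RFX proteins; and TATAAA, the TATA box. Of these, CAGTTG and GTTGCC can share 4 letters. The 3 most abundant genes with such a promoter were Gm3925 (chr5:143165702-143166001, minus strand), 1700008K24Rik (chr17:49113484-49113783, minus strand) and 1700028J19Rik (chr7:44236073-44236372, minus strand).
Gm3925: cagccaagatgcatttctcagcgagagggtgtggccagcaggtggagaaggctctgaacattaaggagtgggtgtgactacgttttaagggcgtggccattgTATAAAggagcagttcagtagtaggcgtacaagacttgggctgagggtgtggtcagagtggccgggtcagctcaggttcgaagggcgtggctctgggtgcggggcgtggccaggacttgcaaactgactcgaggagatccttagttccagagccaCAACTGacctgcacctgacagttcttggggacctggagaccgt
1700008K24Rik: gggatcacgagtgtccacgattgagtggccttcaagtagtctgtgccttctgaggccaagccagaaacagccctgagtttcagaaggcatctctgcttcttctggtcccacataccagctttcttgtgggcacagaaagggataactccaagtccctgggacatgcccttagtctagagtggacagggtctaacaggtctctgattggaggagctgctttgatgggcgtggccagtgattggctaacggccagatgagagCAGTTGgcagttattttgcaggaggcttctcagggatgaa
1700028J19Rik: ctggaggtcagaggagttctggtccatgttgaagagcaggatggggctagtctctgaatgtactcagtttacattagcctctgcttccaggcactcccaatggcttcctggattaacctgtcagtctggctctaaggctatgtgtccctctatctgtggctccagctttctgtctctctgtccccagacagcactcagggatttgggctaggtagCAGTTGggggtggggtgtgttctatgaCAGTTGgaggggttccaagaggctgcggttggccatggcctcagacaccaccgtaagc

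All 3 hold CAGTTG close to the start: its first base lay 7 bases after the start in Gm3925, 10 bases after it in 1700008K24Rik, and 35 and 8 bases before it in 1700028J19Rik. The next 3 had the largest rises in RS among genes with such a promoter and H3K27ac in both RS samples: 1700027A15Rik (chr1:73015786-73016085, plus strand), 1700009J07Rik (chr10:77893170-77893469, plus strand) and 1700016P04Rik (chr6:13413087-13413386, plus strand).
1700027A15Rik: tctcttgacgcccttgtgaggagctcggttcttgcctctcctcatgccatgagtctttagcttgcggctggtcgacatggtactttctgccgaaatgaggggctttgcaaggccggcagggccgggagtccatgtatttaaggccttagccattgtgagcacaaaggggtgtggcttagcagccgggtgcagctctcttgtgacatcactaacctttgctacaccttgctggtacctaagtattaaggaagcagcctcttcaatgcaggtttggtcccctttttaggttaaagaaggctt
1700009J07Rik: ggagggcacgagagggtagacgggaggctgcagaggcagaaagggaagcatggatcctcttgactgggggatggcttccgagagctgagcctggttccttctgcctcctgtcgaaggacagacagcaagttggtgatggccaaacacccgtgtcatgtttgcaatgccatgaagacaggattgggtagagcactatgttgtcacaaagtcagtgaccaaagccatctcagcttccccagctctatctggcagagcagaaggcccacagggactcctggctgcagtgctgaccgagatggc
1700016P04Rik: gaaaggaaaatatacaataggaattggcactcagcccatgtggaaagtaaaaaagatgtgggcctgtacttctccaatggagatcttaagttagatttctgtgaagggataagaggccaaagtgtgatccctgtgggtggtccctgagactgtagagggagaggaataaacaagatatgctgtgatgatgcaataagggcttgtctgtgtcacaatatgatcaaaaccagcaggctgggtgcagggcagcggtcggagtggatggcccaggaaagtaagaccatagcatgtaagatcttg

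None of the 4 letter strings occurred in these 3 windows. The last 3 had the largest falls in RS among genes with such a promoter and H3K27ac in both PS samples: Gm21269 (chr7:73825674-73825973, plus strand), 4930525D18Rik (chr9:114364578-114364877, minus strand) and Speer1-ps1 (chr5:11340158-11340457, plus strand).
Gm21269: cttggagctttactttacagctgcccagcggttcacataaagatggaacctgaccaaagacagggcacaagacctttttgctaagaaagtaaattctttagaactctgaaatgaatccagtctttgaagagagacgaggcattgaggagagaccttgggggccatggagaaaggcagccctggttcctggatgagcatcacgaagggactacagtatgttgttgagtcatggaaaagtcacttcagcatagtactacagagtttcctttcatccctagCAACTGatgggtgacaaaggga
4930525D18Rik: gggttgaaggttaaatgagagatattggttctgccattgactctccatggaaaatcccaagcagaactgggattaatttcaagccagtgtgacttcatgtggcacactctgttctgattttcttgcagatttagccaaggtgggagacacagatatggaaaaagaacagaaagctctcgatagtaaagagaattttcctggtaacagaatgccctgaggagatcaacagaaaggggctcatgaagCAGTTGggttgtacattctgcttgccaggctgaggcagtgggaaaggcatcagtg
Speer1-ps1: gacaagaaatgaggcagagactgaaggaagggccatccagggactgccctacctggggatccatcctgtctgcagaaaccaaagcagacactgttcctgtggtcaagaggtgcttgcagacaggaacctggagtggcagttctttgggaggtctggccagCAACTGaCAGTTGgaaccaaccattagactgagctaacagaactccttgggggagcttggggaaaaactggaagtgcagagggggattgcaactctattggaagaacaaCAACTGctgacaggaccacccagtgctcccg

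These 3 again hold CAGTTG, with 3 matches in Speer1-ps1. Over the 135 promoters, CAGTTG was found in 33 (24.4%), against 13.7% of all 32817 promoters of the same length. From 100 bases before the start onward it was found in 23 (17%), against 7.23% of all promoters. The share was 23.6% among the genes called higher in RS, 24.4% among those called lower and 25.6% among those not called. TGACGT was found in 11.1% (7.51% of all promoters), GTTGCC in 13.3% (12.5%) and TATAAA in 8.89% (13.6%). A match is a description of letters and not of a bound site.

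The means of the 15 highest genes ran from 865 to 107 RPKM. Gm3925, now named Rbakdn, was the highest, with 1065 and 1106 RPKM in the PS samples and 679 and 611 RPKM in the RS samples (log2 fold change -0.70 ± 0.12 SE, edgeR's quasi-likelihood test with Benjamini-Hochberg adjustment, adjusted p = 0.00103), and without RS sample 2 it was -0.53 and not called. Only 19 autosomal protein-coding genes had a higher mean. The single-exon pseudogene 1700123L14Rik had 398 and 453 RPKM in PS and 503 and 476 RPKM in RS, with its RS samples above its PS samples. Next was 1700008K24Rik, with 587 and 534 RPKM in PS and 231 and 193 RPKM in RS. In 1700028J19Rik the PS values were 413 and 432 RPKM and the RS values 282 and 282 RPKM. The fifth, 1700001J11Rik, also a single-exon pseudogene, had 175 and 192 RPKM in PS and 246 and 248 RPKM in RS. Of these 5 genes, 1700123L14Rik (log2 fold change 0.24), 1700028J19Rik (-0.54) and 1700001J11Rik (0.47) were not called at the thresholds given below. Each of the 5 had non-overlapping stages, but RS also lay above PS in 42.3% of all genes tested and below in 41.4%. All 5 were high in both stages. This was not so for 1700027A15Rik (rank 7), which had 10.8 and 19.3 RPKM in PS and 339 and 372 RPKM in RS, nor for Gm9999 (rank 11), with 23.1 and 23.3 RPKM in PS and 288 and 220 RPKM in RS. Of the 15 highest genes, 1700029M20Rik (rank 13) was the most unequal in the other direction, with 215 and 204 RPKM in PS and 32.6 and 34.4 RPKM in RS.

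**Figure D1:**
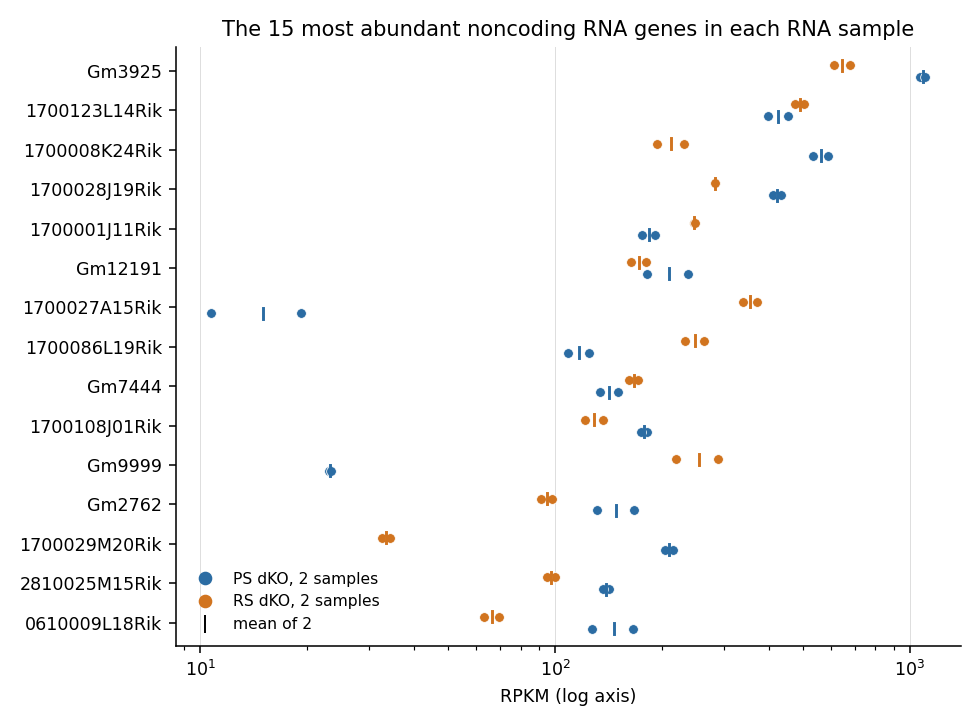
RPKM of the 15 genes with the highest mean, on a log axis, in 2 PS and 2 RS samples of the dKO; points are samples and vertical marks are means of 2. The samples of Gm3925 lie between 611 and 1106 RPKM, whereas 1700027A15Rik and Gm9999 are below 25 RPKM in PS and above 200 RPKM in RS.

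Below these the levels fell quickly. A mean of at least 100 RPKM was reached by 17 genes and at least 50 RPKM by 45, the median of the 200 was 25.1 RPKM, and the 10 highest genes made up 32.6% of the summed RPKM. At the boundary, 1700048O20Rik, 4930441J16Rik and 1700020I14Rik had means of 11.7, 11.7 and 11.5 RPKM, and 4933425H06Rik, 4930520O04Rik and 1700080N15Rik, just outside, had 11.5, 11.4 and 11.4 RPKM. The 200 genes took 1.24% to 1.39% of all reads on genes, and 77.6% to 81.7% of the reads of all 2010 qualifying genes. The lowest count of any of them in any sample was 10 reads, and all 200 passed the filter of at least 10 reads in at least 2 samples.

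Part of the abundance belongs to loci shared with coding genes. The tables placed 8 pseudogene entries across the exons of their spliced parent gene, on its strand, while the current annotation places each of them, as 1 exon, on another chromosome. Their transcripts were 92.3% to 99.8% identical to the spliced parent. They were Gm12191 (parent Rpl30, a ribosomal protein gene), Gm15772 (Rpl26, another), Gm12669 (Glrx3), Gm6793 (Hnrnpa3), Gm6644 (Akr1b3), Gm5801 (Ube2j2), Oaz1-ps (Oaz1, the antizyme of polyamine synthesis) and BC002163 (Ndufs5, a subunit of complex I). The reads of such a place were divided between the entries by the authors' estimation, and the division was read from the counts.

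Gm12191, at rank 6, had 1287, 964, 1203 and 923 reads in PS samples 1 and 2 and RS samples 1 and 2, and Rpl30 had 6, 18, 6 and 13 reads at the same place, so 98.2% to 99.5% of the reads went to the pseudogene. For Gm6644 the share was 100% in all samples, with 1290, 1200, 711 and 570 reads, and Akr1b3, the aldose reductase gene, was listed at 0. In Gm15772 and BC002163 the counts of pseudogene and parent were equal in each sample, a share of 50%. Gm12669 took 45.3% to 57.2%. These 8 values therefore cannot be read as the pseudogene's own level, and the same holds for the levels of the parents. None of the 8 was called higher in RS (30.3% of all genes tested were), and Gm6793 and Gm6644 were called lower (27.6%). These calls rest on the divided reads and carry the same limit.

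**Figure D2:**
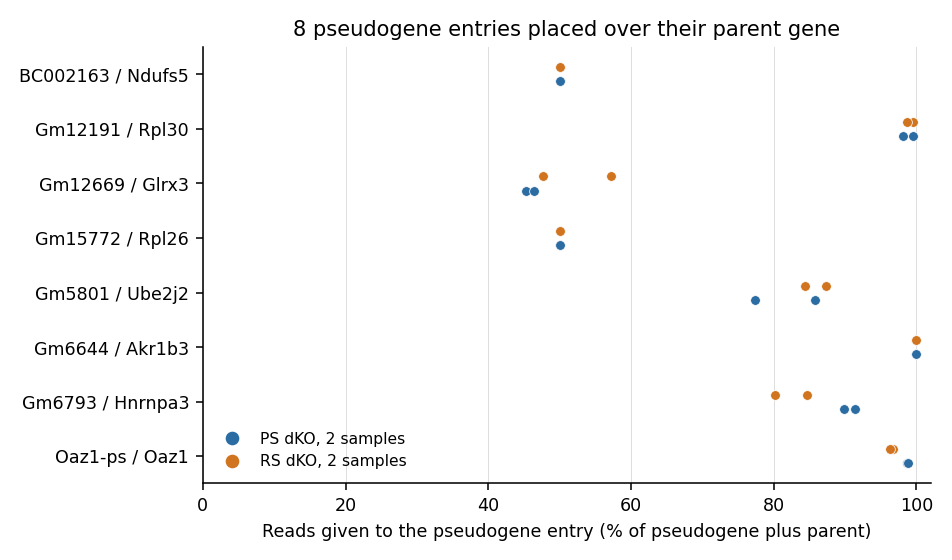
Share of reads given to the pseudogene entry, in percent of pseudogene plus parent reads (x axis), for the 8 entries placed over a parent gene; points are the 2 PS and 2 RS samples of the dKO, and equal values overlie. BC002163 and Gm15772 sit at 50% and Gm6644 at 100% in all 4 samples.

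Read counts of the stages were tested for a difference by the quasi-likelihood method of edgeR, with Benjamini-Hochberg adjustment over 14649 genes, and a gene was called at an adjusted p under 0.05 with at least a 1.5-fold change. Of the 200 noncoding RNA genes, 80 were higher in RS (40%), against 30.3% of all genes tested, and 53 were lower (26.5%), against 27.6%. Among autosomal protein-coding genes with a mean RPKM at least that of the 200th gene, 24.4% were higher and 34.4% lower. Among the 632 lower-ranked noncoding genes tested, 44.5% were higher and 23.7% lower. Of the 100 highest of the 200 genes, 34 were higher and 29 lower. The median log2 fold change of the 200 was 0.02, and 0.01 over all genes tested. Leaving out 1 library at a time gave medians of the 200 of 0.01 (without PS sample 1), 0.14 (without PS sample 2), 0.16 (without RS sample 1) and 0.14 (without RS sample 2). The medians of all genes in these fits are not given, so a shift of the 200 alone cannot be told from a shift of all genes. In all 133 called genes the stages did not overlap in counts scaled to library size (CPM), and over the 200 genes both RS samples lay above both PS samples in 48% (42.3% of all genes tested) and below in 39.5% (41.4%). Of the 67 genes that were not called, 13 had an adjusted p under 0.05 in edgeR with a smaller change, such as 1700028J19Rik (log2 fold change -0.54).

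The rises were larger than the falls. A change of at least 4-fold was found for 60 of the 80 genes called higher (75%, against 51.6% of all genes called higher) and for 19 of the 53 called lower (35.8%, against 15.1%). The lower-ranked noncoding genes had larger shares, 84.3% of those called higher and 40.7% of those called lower. Of the 200 genes, the 80 called higher had a median log2 fold change of 3.10 and the 53 called lower one of -1.15. Over all genes called higher or lower these medians were 2.05 and -1.20, and over the lower-ranked noncoding genes 2.90 and -1.77. In the 80 genes, the median level was 5.75 and 7.87 RPKM in the PS samples and 39.4 and 34.1 RPKM in the RS samples. In the 53 genes it was 42.3 and 42.0 RPKM in PS and 11.9 and 12.9 RPKM in RS. A gene low in both stages could not enter the 200, so these sizes describe the genes kept.

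**Figure D3:**
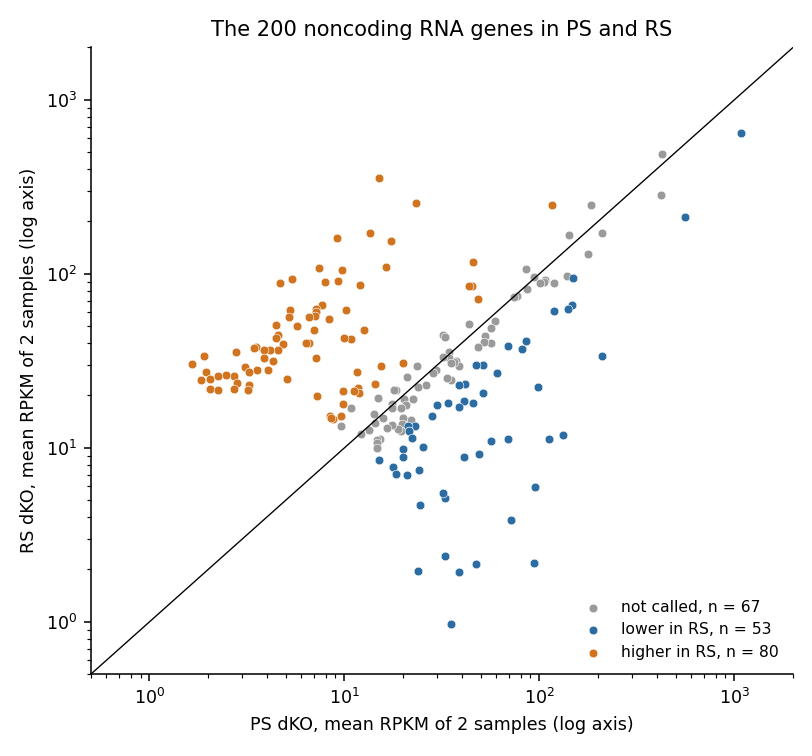
Mean RPKM of 2 samples in PS (x axis) and RS (y axis) of the dKO for the 200 genes, both on log axes; colours give the edgeR call and the line marks equal values. The 80 genes called higher in RS have a median of 5.75 and 7.87 RPKM in the PS samples, and the 53 called lower extend down to 0.97 RPKM in RS.

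The largest rise was that of 1700027A15Rik, a gene of 3 exons that starts 137 bases from Tnp1 on the other strand. It had 50 and 88 reads in PS and 1970 and 1816 reads in RS, a log2 fold change of 4.62 ± 0.25 (SE; edgeR adjusted p = 3.89e-06). Tnp1, which encodes the transition protein that replaces histones in spermatids, had 108 and 170 RPKM in PS and 2596 and 2876 RPKM in RS, a log2 fold change of 4.34. Both genes were thus higher in both RS samples than in either PS sample, and Tnp1 was the more abundant in each. Second was 1700009J07Rik, with 25 and 70 reads in PS and 1046 and 1015 reads in RS (log2 fold change 4.28 ± 0.37 SE, edgeR adjusted p = 2.17e-05). Its rise was 3.67 without PS sample 1 and 5.28 without PS sample 2. The related sequence Hmgb1-rs17 had 1.15 and 2.18 RPKM in PS and 33.2 and 27.2 RPKM in RS (log2 fold change 4.22 ± 0.29 SE). It is a single-exon copy of Hmgb1, which encodes a high mobility group protein, and reads were kept only if they mapped to 1 place.

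The other 7 of the 10 largest rises had log2 fold changes from 3.79 to 4.18. The most abundant of them was 1700031M16Rik, with 7.56 and 10.7 RPKM in PS and 166 and 157 RPKM in RS. Wbscr25 had 5.56 and 9.26 RPKM in PS and 106 and 111 RPKM in RS; its span overlaps Cldn3, a claudin gene of the other strand that was also called higher (log2 fold change 3.44). 1700016P04Rik had 5.73 and 5.04 RPKM in PS and 97.5 and 88.3 RPKM in RS. 1700029B22Rik, 1700085B03Rik, 1700063D05Rik and Gm19395 stayed below 4 RPKM in both PS samples and reached 22.3 to 39.9 RPKM in RS. All 10 genes had stages that were far apart compared with their replicates, but they were chosen for large changes and stages that did not overlap.

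Values of the RS-high genes in PS differed between the PS samples. Of the 80 genes called higher, 72 had a larger CPM in PS sample 2 than in PS sample 1, with a median ratio of 1.36, against a share of 60.9% and a median ratio of 1.101 over all genes called higher. Over the 200 genes, 13 had PS samples more than 2-fold apart, such as 4930471G03Rik with 4.85 and 11.03 RPKM (log2 fold change 3.53, and 4.29 without PS sample 2), and 1 had RS samples so far apart. The 12 round spermatid markers, which include Prm1, Prm2, Tnp1 and Acrv1, summed to 534 and 889 RPKM in the PS samples. The part of spermatid RNA in these PS values was not tested. Counts of calls without 1 PS sample are given as a range at the end, without the shares of all genes.

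The largest fall was that of Gm21269, with 88.4 and 99.3 RPKM in PS and 1.67 and 2.68 RPKM in RS (log2 fold change -5.41 ± 0.25 SE, edgeR adjusted p = 3.37e-06). 4921525O09Rik had 35.8 and 34.4 RPKM in PS and 0.81 and 1.14 RPKM in RS (log2 fold change -5.14 ± 0.20 SE). In both genes the samples of a stage lay close together. 4930525D18Rik was less even, with 25.6 and 69.4 RPKM in PS and 1.60 and 2.72 RPKM in RS (log2 fold change -4.44 ± 0.53 SE, and -3.49 without PS sample 2). Speer1-ps1, now the coding gene Speer1 of a testis family of glutamate-rich proteins, had 35.1 and 42.0 RPKM in PS and 1.81 and 2.07 RPKM in RS. The family has many similar copies, and only reads that mapped to 1 place were counted, so its level is uncertain. Gm6567, 4931408D14Rik, 4933404O12Rik, D130017N08Rik, 1700020N18Rik and 9330102E08Rik completed the 10, with log2 fold changes from -4.18 to -3.27 and PS levels from 23.7 to 135 RPKM.

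**Figure D4:**
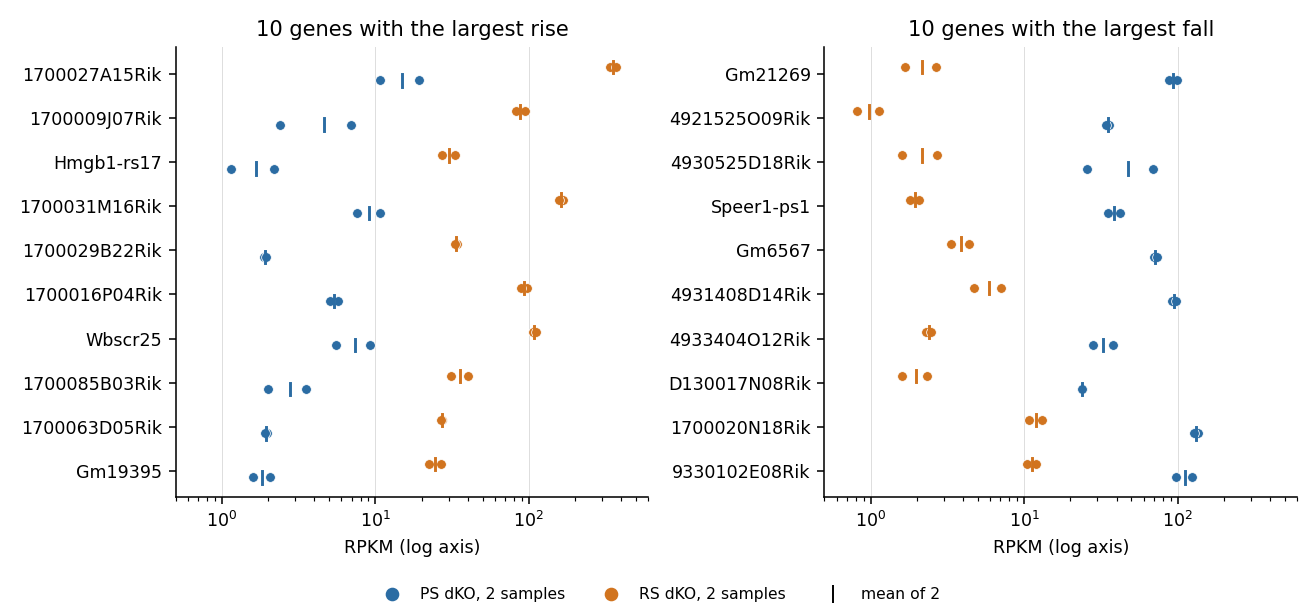
RPKM on a log axis for the 10 called genes with the largest rise (left) and the 10 with the largest fall (right) in RS; points are the 2 PS and 2 RS samples of the dKO and vertical marks are means of 2. No RS sample overlaps a PS sample in any of the 20 genes, but stages that did not overlap were a condition of their choice.

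Another cell type moved with the stages. All 6 Leydig cell markers (Cyp17a1, Cyp11a1, Star, Hsd3b1, Hsd3b6 and Insl3) were lower in RS, and their summed level was 566 to 783 RPKM in PS and 45.0 to 71.9 RPKM in RS, an 11.5-fold difference. None of the 6 was at 0 in any sample. 9330102E08Rik fell over a similar range, with 125 and 97.9 RPKM in PS and 10.39 and 12.00 RPKM in RS, and in wild-type PS it had no H3K27ac interval within 2 kb of its start in either sample. The part of Leydig cell RNA in this or the other falls was not tested.

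Of the noncoding RNAs known by function or location, 5 from the lists searched were among the 200, and no imprinted, structural or named germ cell RNA was. Mirg, on the imprinted list, begins with Mir and could not qualify. Snhg3, whose introns carry small nucleolar RNAs, had 107 and 90.6 RPKM in PS and 23.1 and 21.4 RPKM in RS (log2 fold change -2.11 ± 0.18 SE, edgeR adjusted p = 1.98e-05). The other host, 2410006H16Rik, had 42.3 and 41.2 RPKM in PS and 22.02 and 24.31 RPKM in RS (log2 fold change -0.81 ± 0.18 SE, edgeR adjusted p = 0.00482), and without RS sample 1 it was -0.65 and not called. Both hosts were thus lower in RS. The 3 nuclear or chromatin RNAs were not called. Tug1, a conserved RNA needed for male fertility in mice, had 28.6 and 23.8 RPKM in PS and 19.19 and 26.96 RPKM in RS, and its stages overlapped (log2 fold change -0.08 ± 0.17 SE). Gt(ROSA)26Sor, transcribed from the locus widely used for transgenes, had 17.7 and 13.9 RPKM in PS and 14.3 and 15.4 RPKM in RS, also overlapping. 1700020I14Rik, now Oip5os1 and known as Cyrano, had 10.6 and 8.72 RPKM in PS and 14.3 and 12.6 RPKM in RS (log2 fold change 0.54 ± 0.19 SE, edgeR adjusted p = 0.0357, below the 1.5-fold minimum), and it was called higher without PS sample 1 (0.66) or without RS sample 2 (0.73).

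Grouped by name, 57 of the 130 testis clone genes were higher in RS, 31 lower and 42 not called, beside the 30.3% and 27.6% of all genes tested. Of the 25 genes with other Rik names, 5 were higher, 10 lower and 10 not called, and of the 23 Gm genes 10, 6 and 7. The median log2 fold changes of these groups were 0.14, -0.47 and 0.27. Whether the groups differ from each other or from all genes was not tested. Of the 14 genes now annotated as coding, 7 were higher, such as Rhno1 with 11.97 and 13.23 RPKM in PS and 50.7 and 44.2 RPKM in RS, and 4 were lower, such as Efcab8 with 16.6 and 26.3 RPKM in PS and 11.9 and 13.1 RPKM in RS. Another of the 4, 6430706D22Rik, had 21.7 and 18.4 RPKM in PS and 7.37 and 12.4 RPKM in RS, while the overlapping entries Hjurp (log2 fold change -0.43) and A730008H23Rik (-0.30) were not called. Of the 19 pseudogenes at their own place, 8 were higher and 2 lower.

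H3K27ac at the starts was measured in other mice and was not used to choose the genes. An interval of the deposited lists reached within 2 kb of a start in both wild-type PS samples for 185 genes (92.5%), against 55.7% of all autosomal genes, and in both RS samples for 180 genes (90%), against 51.5%. Among protein-coding genes with a mean RPKM at least that of the 200th gene, the shares were 96% and 95.6%, and among the 1810 lower-ranked noncoding genes 39.4% and 37.9%. Both stages were marked in both samples for 173 genes. At least 1 sample had an interval for 197 genes (98.5%, against 63.2% of all autosomal genes), and none did for 3 genes: 1700104A03Rik, Abca16 and 1810020O05Rik. The highest fold enrichment at any of the 200 was 51.9 and 58.1 in the PS samples and 41.9 and 40.1 in the RS samples.

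Fold enrichment was compared as log2(1 + fold enrichment), with 0 where no interval was present, averaged over 2 samples. With 2 samples against 2, an exact permutation test of 1 gene cannot go below a two-sided p of 1 in 3, so none was run. The median of RS minus PS was -0.40 over the 197 genes with an interval and -0.41 over all 14085 autosomal genes with one. The values were thus lower in RS over autosomal genes in general, and whether this lies in the cells or in the measurement was not tested. On ranks of fold enrichment within each sample the medians were 0.43 and -0.16 percentile points, and no direction is read from them.

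Split by the RNA of the dKO, the genes parted. Among the 79 genes with an interval that were called higher in RS, the median fold enrichment was 7.82 and 8.77 in the PS samples and 18.3 and 13.9 in the RS samples, the median difference was 0.99, and 60 genes had more in RS. Over all autosomal genes called higher the median difference was 0.11 and 1844 of 3322 had more in RS, but the lower-ranked noncoding genes called higher had a median of 1.04, with 214 of 251. Among the 52 called lower, the median fold enrichment was 23.9 and 27.4 in PS and 12.4 and 9.87 in RS, the median difference was -0.98, and 7 genes had more in RS. Over all autosomal genes called lower these were -0.59 and 373 of 3736 genes, and over the lower-ranked noncoding genes -0.70 and 10 of 122. The 66 uncalled genes had a median difference of -0.68 (-0.48). On ranks within each sample the medians were 23.6, -5.94 and -1.68 percentile points, so the order of the RNA groups held on either scale. Over all autosomal genes the rank medians were 7.03, -2.08 and -0.96, in the same order. By rank, 69 of the 79 genes called higher had more in RS, and 2421 of the 3322 over all autosomal genes. With missing intervals set not to 0 but to the lowest fold enrichment of any interval in the sample (3.29, 3.29, 2.85 and 3.48 in PS samples 1 and 2 and RS samples 1 and 2), the medians were 0.85, -0.88 and -0.58. Whether the 200 genes differ from other genes in this was not tested.

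Genes with and without a coding gene nearby were also counted apart. A start of a coding gene lay within 2 kb of the start of 66 genes, and 17 of these were called higher; their median difference was -0.08, and 7 of the 17 had more in RS. Of the 63 genes called higher with no coding start so near, 62 had an interval, the median difference was 1.03, and 53 had more in RS. Among the lower-ranked noncoding genes called higher, 24 of 40 with a coding start so near and 190 of 211 without one had more in RS, with medians of 0.18 and 1.08. The difference between genes with and without such a start was not tested. Of the 53 genes among the 200 without such a start that rose at least 4-fold, 48 had more in RS.

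**Figure D5:**
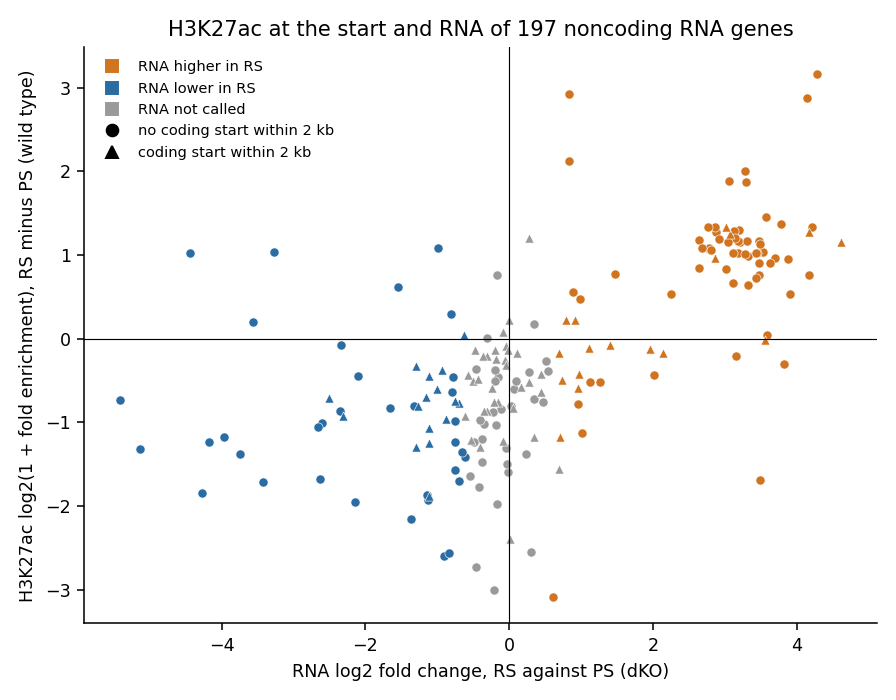
RNA log2 fold change of RS against PS in the dKO (x axis) and RS minus PS difference of log2(1 + H3K27ac fold enrichment) in wild type (y axis, missing intervals at 0) for the 197 genes with an interval; colours give the edgeR call and shapes whether a coding start lies within 2 kb. Of the 79 genes called higher, 60 are above 0 on the y axis, and of the 52 called lower 7 are.

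At 1700009J07Rik, 4930441J16Rik and 1700016P04Rik both RS samples but neither PS sample had an interval. In the RS samples the fold enrichment was 8.54 and 7.55 at 1700009J07Rik, 6.92 and 6.39 at 4930441J16Rik, and 7.73 and 5.22 at 1700016P04Rik. With the PS samples at 0 their differences, 3.17, 2.93 and 2.88, were the largest of the 200, but no PS interval was called below 3.29, and against that limit they were at least 1.07, 0.83 and 0.78. Measured in all 4 samples, the largest difference was 1.46, at Gm10731. The RNA of all 3 was called higher in RS, but that of 4930441J16Rik, with 8.16 and 8.90 RPKM in PS and 15.1 and 14.6 RPKM in RS, was not called without RS sample 1, without RS sample 2 or by DESeq2, although its log2 fold change (0.84) was then 0.91, 0.97 and 0.85. Next, with missing intervals at 0, were 1700110K17Rik and 4930461G14Rik, each with an interval in 1 PS sample and both RS samples, and also called higher, the former not without PS sample 1 (log2 fold change 0.46) or without RS sample 2 (0.86), against 0.84 with all samples.

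At the other end, also with missing intervals at 0, fold enrichment at 1700019G24Rik was 7.41 and 7.67 in PS with no interval in RS, while its RNA was called higher, with 45.8 and 51.4 RPKM in PS and 80.5 and 63.3 RPKM in RS (log2 fold change 0.61 ± 0.19 SE, edgeR adjusted p = 0.0193), a call that was lost without PS sample 1 or RS sample 1. 4933406F09Rik, with 5.76 and 5.48 in PS and no interval in RS, had overlapping RNA. 1700109F18Rik, now Hoxd3os1, had 15.2 and 19.2 in PS and 4.07 in 1 RS sample, and its RNA was not called. Scgb2b23-ps and 1700025F24Rik, likewise with an interval in 1 RS sample, were called lower, the latter not without RS sample 2. Measured in all 4 samples, the largest loss was at 1700046C09Rik (-2.39), followed by the abundant 1700008K24Rik (-2.16), with 40.7 and 44.9 in PS and 8.95 and 8.71 in RS. Among the most abundant genes, Gm9999 stood out, since its RNA was 11.3-fold higher in RS while the fold enrichment was 5.76 and 4.93 in PS and 2.85 and 0 in RS. The reverse was seen at D130017N08Rik, with RNA 11.8-fold lower in RS and a fold enrichment of 25.5 and 33.4 in PS and 39.1 and 29.0 in RS, where the samples overlap. At 4930525D18Rik, whose RNA was also lower in RS, the fold enrichment was 4.12 and 4.93 in PS and 9.36 and 11.03 in RS.

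Coding neighbours were common. A coding gene on the other strand started within 2 kb of 59 genes (29.5%, against 21.7% of the lower-ranked noncoding genes), and the span of a coding gene on the other strand overlapped 47 (23.5%, against 28.5%). No coding gene overlapped or started within 2 kb for 107 genes. The libraries did not keep the strand, so reads in exons that overlap on both strands cannot be assigned to either gene. This touched the exons of 35 of the 180 genes with an exon model, but at least 50% of the exonic bases in only 1, 1700066J24Rik (66.2%, opposite Fam219a). In AI507597, which had 9.85 and 17.2 RPKM in PS and 162 and 179 RPKM in RS, 45.7% of the exonic bases lay opposite Tmem82, which was also called higher but had at most 1.29 RPKM in any sample.

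In 18 pairs of a gene and a coding neighbour that starts within 2 kb on the other strand both were called, 13 in the same direction and 5 in opposite directions. Over the lower-ranked noncoding genes these were 44 and 12 pairs. Among the pairs in the same direction, 0610009L18Rik starts 194 bases from Actg1, a cytoplasmic actin gene, and had 127 and 166 RPKM in PS and 63.2 and 69.5 RPKM in RS (log2 fold change -1.11), while Actg1 had a log2 fold change of -0.91. Rhno1 starts 97 bases from Foxm1, a cell cycle transcription factor gene, and the 2 genes had log2 fold changes of 1.96 and 1.40. 1700097N02Rik and Dnah8, an axonemal dynein gene, start 31 bases apart and had -1.29 and -1.60.

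The 5 pairs in opposite directions were 4932415G12Rik with Ccdc41, 4932416H05Rik with Stk35, 4921531C22Rik with Taf4a, Gm10638 with Siah1a and Gm11978 with Ramp3. 4932415G12Rik, now Cep83os, fell from 60.3 and 52.1 RPKM in PS to 11.3 and 10.7 RPKM in RS (log2 fold change -2.31 ± 0.13 SE, edgeR adjusted p = 4.52e-06), and Ccdc41, a centriole gene that starts 177 bases away, had a log2 fold change of 0.84. Gm10638 had a log2 fold change of 0.97 and Siah1a, a ubiquitin ligase gene 307 bases away, of -2.23. Starts this close thus went with either direction.

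The RNA samples had 9655405 to 12289694 reads on genes. All 12 round spermatid markers were higher in RS and 7 of the 10 pachytene markers were lower, each in the direction of its label. The markers of spermatogonia summed to 332 to 429 RPKM, those of Sertoli cells to 17.4 to 63.4 RPKM, and those of peritubular cells and blood to 1.54 to 3.07 RPKM with 2 of 5 at 0 in every sample. Most of the spermatogonial sum was Dmrtb1, with 359 and 413 RPKM in PS and 326 and 306 RPKM in RS. Most of the Sertoli sum was Clu, with 57.95 and 27.04 RPKM in PS and 28.15 and 14.46 RPKM in RS. Single markers of these lists were called higher in RS: the spermatogonial Zbtb16, Gfra1 and Dmrt1 (log2 fold changes 0.93, 2.06 and 0.87), Wt1 of Sertoli cells (1.31) and the leukocyte gene Ptprc, with 1 and 0 reads in PS and 52 and 16 reads in RS. Their part in the rises was not tested. The null alleles still gave reads: Rnf8 had 2.09 to 4.88 RPKM and Scml2 0.65 to 1.72 RPKM, and no wild-type RNA was analysed here to compare them with. The labels do not say which mouse gave a sample. The study calls the 2 samples of a stage biological replicates, and its methods describe taking both stages from 1 dKO male, so that same-numbered PS and RS samples may share a mouse. The H3K27ac lists held 41095 to 74919 intervals per sample, most in RS sample 1.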

How the data were processed

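PS and RS were profiled by RNA-seq in Rnf8;Scml2-dKO males and by H3K27ac ChIP-seq in wild-type males, with 2 samples per group and groups taken from the labels. RNA reads were mapped by the authors with STAR (2.4.2a) on mm10. They kept unique alignments, and deposited estimated read counts per RefSeq transcript, given as whole numbers, together with RPKM values. The RNA was amplified and the libraries did not keep the strand. For ChIP-seq, the authors aligned with Bowtie and called intervals per sample with MACS2 (versions 1.1.1 and 2.1.0.20140616 in the submitters' processing notes, whereas the study's methods give other versions). They deposited the pileup signal, fold enrichment ratio, −log10 p and −log10 q of each interval, and fold enrichment is used here. The deposited count and RPKM values were summed over the RefSeq entries of a gene.

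Counts were tested in R 4.3.3 with edgeR 4.0.16 (quasi-likelihood F test, TMM normalization, RS against PS, Benjamini-Hochberg adjustment) over 14649 genes with at least 10 reads in at least 2 samples, and DESeq2 1.42.0 was an alternative. The standard error was the fold change divided by the root of F. The fit was tested on simulated data. With totals of 9655405 to 12289694 reads per RNA sample and a biological coefficient of variation of 0.140, only 2 samples per stage limit the precision. The p-values set the difference between stages against the spread between these samples, which edgeR estimates with information from all genes tested. H3K27ac was the highest fold enrichment of an interval within 2 kb of any start, as log2(1 + fold enrichment), and had no test. Neighbouring genes and start distances come from the tables (mm10), and exons, current names and promoters from RefSeq on GRCm38.p6, in which 188 genes matched by accession, 10 by symbol and 2 by synonym.

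The genes and lists were chosen with earlier results of these data known. Genes were named by rule: the 15 highest, the 3 on either side of the boundary, the 10 largest rises and 10 largest falls, known noncoding RNAs (imprinted, nuclear or chromatin, snoRNA host, structural, germ cell) and the 5 largest and 5 smallest H3K27ac differences. The rises and falls were ranked among called genes whose stages did not overlap in CPM. Examples of neighbours, of exon overlap, of genes now annotated as coding, of uneven PS samples, of H3K27ac differences measured in all samples and of RNA and H3K27ac moving apart were chosen after their values were seen. Alternatives were other tools, scalings, filters, thresholds, windows and choices of genes, a replicate block, and each sample left out. Marker lists of 6 cell types were also read. The study's own comparison of genotypes was not repeated, since no other genotype was analysed here.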

Additional observations from a re-analysis of the deposited data

How the results depend on the processing

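Under DESeq2, DESeq2's size factors, no filter on low counts, the replicate block and each RNA sample left out, no gene called higher or lower in RS turned direction. DESeq2 called 76 genes higher and 51 lower, against 80 and 53. Leaving out 1 sample at a time changed the fold of 13 called genes by over 1.5 times, in each case on leaving out a PS sample, and gave 75 to 82 higher and 41 to 58 lower, and moved the median log2 fold change between 0.0097 and 0.1567, with 0.1433 without PS sample 2, 0.1567 without RS sample 1 and 0.141 without RS sample 2. A 2-fold minimum left 67 higher and 35 lower. The shares of all genes called at that minimum, by DESeq2, with the block or with 1 sample left out are not given. The 100 highest genes held 34 higher and 29 lower, close to the 30.3% and 27.6% of all genes tested. Without the 8 pseudogene entries over their parent gene, an alternative chosen after seeing the data, the median log2 fold change was 0.0996. Without genes that have a coding start within 2 kb, 120 genes had H3K27ac in both PS samples and 116 in both RS samples, since fewer genes were counted. With 1 H3K27ac sample of a stage, 188 genes had an interval in PS and 181 to 193 in RS, and the median H3K27ac difference ran from -0.5258 to -0.1973. On rank percentiles this median was 0.43, and with missing intervals at the lowest fold enrichment of the sample, also chosen after seeing the data, -0.3705. The replicate block gave 81 higher, 54 lower and a median of 0.027. Same-numbered RNA samples deviated together with a correlation of 0.226 over genes, and the study's methods describe a preparation that yields both stages from 1 male, so same-numbered samples may come from 1 mouse, although no label ties a number to a mouse. The block kept all 80 and 53 calls. The cause of the shifts in the medians was not tested.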
